A study of Mus musculus with 6 samples.

Results

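The genes described here are 9 of the 27734 genes of the deposited table, death receptors and p53-linked effectors, initiator caspases and the apoptosome platform, chosen by symbol: Eda2r, Tnfrsf10b, Fas, Perp, Aen, Pidd1, Casp8, Casp9 and Apaf1. Gene expression had been measured by RNA sequencing in chondrocytes, the cells that build cartilage, isolated fresh from rib cartilage of mice at stage E18.5. The 3 wild-type libraries were compared with 3 libraries from embryos carrying Jab1flox/flox and Col2a1-Cre, a Cre recombinase driven by the promoter of a cartilage collagen gene, which deletes Jab1 in the cells that use that promoter and in their descendants. The controls were labelled wild type with no further allele named, and the labels name no drug or other agent for either group. Cells of both groups went through the same digestion with pronase and collagenase, the latter overnight, and were collected without culture. The question was which of these genes change in chondrocytes when Jab1, a subunit of the COP9 signalosome encoded by Cops5, is lost.

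Cells can be driven into apoptosis from the outside or from within. In the extrinsic route, receptors of the tumor necrosis factor family such as Fas bind a ligand at the surface and recruit adaptors that activate caspase-8. In the intrinsic route, mitochondria release cytochrome c, which joins Apaf1 in a wheel-shaped complex, the apoptosome, that activates caspase-9. The transcription factor p53 can raise genes of both routes, among them Eda2r, Tnfrsf10b, Fas, Perp, Aen, Pidd1 and Apaf1. In cartilage, apoptosis is best known from the end of the growth plate, where hypertrophic chondrocytes give way to bone.

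Of the 9 genes, 3 rose in mutant chondrocytes (Eda2r, Fas and Aen), none fell and 6 did not pass the test. The test was limma on log2(FPKM + 1) over the 14012 genes that averaged 1 FPKM or more, where "rose" and "fell" stand for a Benjamini-Hochberg adjusted p under 0.05. FPKM are fragments scaled by gene length and library size, so levels of different genes can be set side by side. Over all genes tested, 3.48% rose and 2.59% fell, 6.07% in either direction. At an unadjusted limma p under 0.05, 7 of the 9 were higher and 1 was lower, against 1773 higher and 1686 lower of all genes tested. The groups did not overlap for 8 of the 9, with 7 higher and 1 lower in mutant libraries, against 16.3% higher and 15.9% lower of all genes. The median difference of the 9 was 0.57 in log2(FPKM + 1), mutant minus wild type, and that of all genes tested was -0.004. Without wild-type column 2, and likewise without mutant column 2, 1 of the 9 rose, and 4 rose without mutant column 0. All 9 passed the filter on low values, which used the mean of all 6 libraries. Eda2r passed it only through the mutant libraries, with means of 0.718 FPKM in wild-type and 8.80 FPKM in mutant libraries. The genes had been picked with earlier results of these data known, so these counts describe them and give no independent support.

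The starts of the genes that rose are shown here because each is a known target of p53, whose binding letters can be searched. The p53 half-site, the 10-base unit to which a pair of p53 molecules binds, was searched by name on both strands from 250 bases before to 50 bases after each RefSeq transcript start (GRCm38.p6). It is its own reverse complement, so a match on one strand is a match on the other. Of the 9 genes, 7 had a promoter in the table, Tnfrsf10b and Perp were not among them, and Aen had 2 annotated starts. Only the Aen windows held an exact half-site, GGGCTTGTCC at chr7:78895937-78895946, printed in capitals, 10 bases downstream of one start and 121 bases upstream of the other. Of all 32851 promoters in the table, 8.36% held at least 1. The Eda2r window (chrX:97377160-97377459, minus strand), the Fas window (chr19:34290409-34290708, plus strand) and the Aen window around the upstream start (chr7:78895677-78895976, plus strand) read as follows, 5′ to 3′.
Eda2r: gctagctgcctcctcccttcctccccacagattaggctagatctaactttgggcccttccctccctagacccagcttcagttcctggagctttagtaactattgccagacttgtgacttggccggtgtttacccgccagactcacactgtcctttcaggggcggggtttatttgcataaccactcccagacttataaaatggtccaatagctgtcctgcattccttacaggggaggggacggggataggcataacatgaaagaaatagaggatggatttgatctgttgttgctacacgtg
Fas: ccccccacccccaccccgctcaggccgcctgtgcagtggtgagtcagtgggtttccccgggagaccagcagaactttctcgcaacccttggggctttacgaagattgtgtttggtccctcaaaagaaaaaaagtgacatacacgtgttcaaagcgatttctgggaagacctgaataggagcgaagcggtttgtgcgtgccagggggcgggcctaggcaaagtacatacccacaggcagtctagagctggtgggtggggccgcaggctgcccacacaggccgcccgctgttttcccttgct
Aen: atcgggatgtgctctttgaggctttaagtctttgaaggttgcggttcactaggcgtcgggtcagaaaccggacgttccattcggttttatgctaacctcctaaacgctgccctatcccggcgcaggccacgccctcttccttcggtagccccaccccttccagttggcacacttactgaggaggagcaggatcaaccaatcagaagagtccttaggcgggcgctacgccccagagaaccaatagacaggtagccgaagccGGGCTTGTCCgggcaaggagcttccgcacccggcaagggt
The absence of a match says only that these letters are not in the window, and no window of Pidd1, Casp8, Casp9 or Apaf1 held one either. The windows differed in base composition, with 42.0% G and C at Casp8, 50.3% at Eda2r and 74.7% at Apaf1 against a median of 52.7% over all promoters. The Eda2r and Casp8 windows each held 5 CpG dinucleotides and the Apaf1 window 46. The Casp8 window (chr1:58802252-58802551, plus strand) lay inside the gene model, which starts at 58795374, so its letters are not those of that 5′ end.

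The libraries differed beyond the genotype label, and these differences touch the results below. Cops5 was 39.8 to 42.3 FPKM in wild-type and 17.0 to 18.0 FPKM in mutant libraries (limma adjusted p = 6.5e-04), so transcripts of the deleted gene were lower but still present. Library columns held 571180 to 631534 FPKM in total, and the labels give the same number of reads for every sample. Cartilage markers were abundant in both groups, with the summed level of 11 measured markers at 11900 to 13400 FPKM in wild-type and 8330 to 12300 FPKM in mutant libraries. Of these 11, Comp and Matn3 fell, and 6 were lower in each mutant than in each wild-type library. The markers Col2a1, Col9a1 and Col11a1 had no matching gene in the deposited values and are not in this sum. Y-linked Ddx3y measured 0.0281 to 0.450 FPKM in wild-type libraries and 7.78, 46.1 and 36.0 FPKM in mutant columns 0, 1 and 2, while Xist, which is transcribed from the inactive X chromosome, measured 63.1 to 65.9 FPKM in wild-type libraries and 37.3, 0.0176 and 0.0244 FPKM in those mutant columns. The 7 erythroid markers summed to 196 to 221 FPKM in wild-type and 14.9 to 49.4 FPKM in mutant libraries, and the 10 leukocyte markers to 104 to 270 and 19.9 to 53.9 FPKM, with the T cell marker Cd3e at or near 0 throughout. Of the tested markers, 5 of 5 erythroid, 2 of 7 leukocyte, 1 of 5 skeletal muscle (Tnnt3) and 1 of 9 bone and perichondrium genes (Dcn) fell. The 8 muscle markers summed to 149 to 174 FPKM in wild-type and 53.3 to 79.3 FPKM in mutant libraries. Most of that sum was Tnnt3, at 123 to 162 FPKM in wild-type and 41.6 to 63.5 FPKM in mutant libraries. It was the only 1 of the 8 whose groups did not overlap. Immediate early genes, which respond within minutes to stress, summed to 56.1 to 65.9 FPKM in wild-type libraries, 93.7 and 104 FPKM in mutant columns 1 and 2 and 1360 FPKM in mutant column 0. The title of wild-type column 0 carries day 30 and all other titles day 24. The part of these differences in the results was not tested beyond the fits named below. Whether the libraries stem from different embryos is not in the labels, so the spread behind each p-value is that among these libraries and may be in part technical. Mutant column 0 differed from mutant columns 1 and 2 in Ddx3y and Xist, so the mutant libraries were not all drawn from the same RNA.

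Eda2r showed the largest difference among the 9 genes. It encodes a TNF-family receptor that binds ectodysplasin A2 and lacks the death domain found in Fas. Eda2r measured 0.607, 0.807 and 0.740 FPKM in wild-type columns 0, 1 and 2 and 9.16, 7.95 and 9.30 FPKM in mutant columns 0, 1 and 2. It thus lay under 1 FPKM in every wild-type library and within a narrow band far above that in every mutant library. The means were 0.718 ± 0.102 and 8.80 ± 0.743 FPKM (SD, n = 3), a 12.3-fold ratio of means. On the log2(FPKM + 1) scale the difference was 2.51 (95% confidence interval 2.26 to 2.76, limma adjusted p = 2.4e-04), and 23 of the 14012 genes had a smaller p. The gene lies on the X chromosome (97333840 to 97377216, mm10). Mutant column 0, which kept Xist at 37.3 FPKM, gave a difference from the wild-type mean of 2.57, and mutant columns 1 and 2, with Xist near 0, gave 2.38 and 2.59. Eda2r rose in all 6 fits that left out 1 library. In a limma fit with the mean log2 level of 4 Y-linked genes as covariate its difference was 2.66 (adjusted p = 0.020). The standard error was 0.259 there and 0.102 without the covariate. Each of these 4 genes was higher in every mutant than in every wild-type library. Fits with this covariate, here and below, thus cannot fully separate Y-linked level from genotype. In bulk RNA, more cells with a transcript and more transcript per cell cannot be told apart, here and for every gene below.

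**Figure D1:**
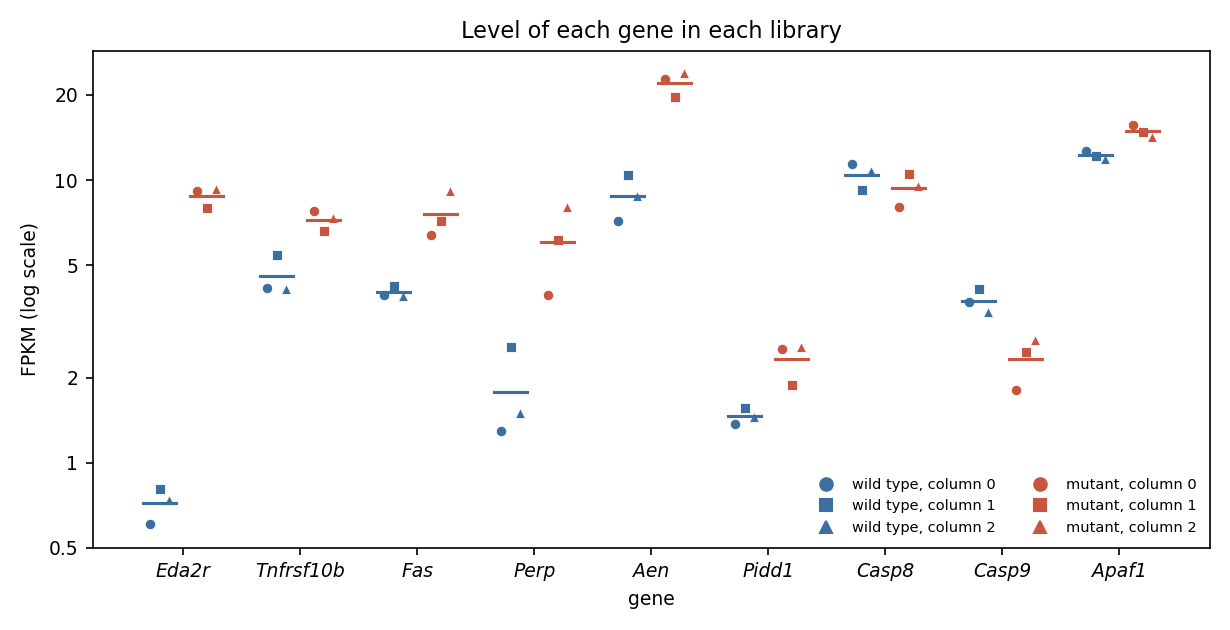
FPKM of each of the 9 genes (log axis) in each library, with wild-type libraries in blue, mutant libraries in red, a symbol for each column number and a bar at each group mean. Eda2r lies at 0.607 to 0.807 FPKM in wild-type and 7.95 to 9.30 FPKM in mutant libraries, while the values of Casp8 overlap.

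Fas, the receptor for Fas ligand and the prototype of the death receptors (chromosome 19, 34290666 to 34327772, mm10), rose to a lesser degree. It measured 3.92, 4.21 and 3.89 FPKM in wild-type columns 0, 1 and 2 and 6.40, 7.19 and 9.12 FPKM in mutant columns 0, 1 and 2. Wild-type libraries lay close together and mutant libraries spread upward from them, with column 2 highest. The means were 4.01 ± 0.177 and 7.57 ± 1.40 FPKM (SD, n = 3), and the difference was 0.76 in log2(FPKM + 1) (95% confidence interval 0.45 to 1.08, limma adjusted p = 0.033). Fas is also made by leukocytes, whose 10 markers moved in different ways. Of these, 4 (Ptprc, Lyz2, S100a8 and S100a9) were lower in each mutant than in each wild-type library, with Ptprc at 1.88 ± 0.765 and 0.373 ± 0.220 FPKM (adjusted p = 0.069). The other 6 overlapped, among them the macrophage marker Cd68. In mutant columns 0, 1 and 2 Cd68 measured 4.59, 7.90 and 17.5 FPKM, highest where Fas was highest. In wild-type columns 0, 1 and 2 it measured 4.53, 5.48 and 9.60 FPKM, highest in column 2, where Fas was lowest. The part of leukocytes in the Fas values was not tested. The call depended on the libraries used. Fas passed without mutant column 0 (adjusted p = 0.033) and lost the call in each of the other 5 fits that left out 1 library, where the adjusted p was 0.063 to 0.115. In a fit with a Y-linked covariate the difference was 0.34 and did not pass (adjusted p = 0.55), with a standard error of 0.282 against 0.128 without it. A small RNA gene model lies on the same strand within Fas.

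Tnfrsf10b encodes the mouse receptor for TRAIL, the counterpart of human DR5 (chromosome 14, 69767472 to 69784411, mm10). It measured 4.15, 5.45 and 4.12 FPKM in wild-type columns 0, 1 and 2 and 7.77, 6.61 and 7.34 FPKM in mutant columns 0, 1 and 2. All mutant values lay above all wild-type values, with means of 7.24 ± 0.585 and 4.57 ± 0.756 FPKM (SD, n = 3). The difference was 0.57 (95% confidence interval 0.28 to 0.86) and just missed the threshold in limma (adjusted p = 0.052). Tnfrsf10b passed under 7 of the 18 alternative settings, with adjusted p from 0.024 to 0.23 over all of them. The adjusted p was 0.062 to 0.16 in the 6 fits without 1 library.

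Aen encodes a nuclease, apoptosis enhancing nuclease, that digests DNA and RNA downstream of p53 (chromosome 7, 78895854 to 78911209, mm10). It measured 7.16, 10.4 and 8.79 FPKM in wild-type columns 0, 1 and 2 and 22.7, 19.7 and 23.9 FPKM in mutant columns 0, 1 and 2. Every mutant library held more than any wild-type library by a wide gap. The means were 8.80 ± 1.64 and 22.1 ± 2.15 FPKM (SD, n = 3), a 2.51-fold ratio, and the difference of 1.25 in log2(FPKM + 1) passed the limma test (95% confidence interval 0.89 to 1.60, adjusted p = 0.014). Among the 9 genes Aen ranked below Apaf1 and Casp8 in wild-type libraries and above all others in mutant libraries by mean level. Without wild-type column 2 and without mutant column 2 it did not pass (adjusted p = 0.061 in each fit), with differences of 1.12 to 1.37 in the 6 fits that left out 1 library. In a limma fit with a Y-linked covariate the difference was 1.39 and its adjusted p 0.17. Its standard error was 0.395 there, 0.162 with the replicate block and 0.144 with neither. Both of these fits had fewer residual degrees of freedom.

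Perp, a membrane protein of p53-linked apoptosis that also holds desmosomes together in epithelia (chromosome 10, 18845020 to 18857073, mm10), had the second largest difference but a wide spread. It measured 1.30, 2.56 and 1.50 FPKM in wild-type columns 0, 1 and 2 and 3.92, 6.13 and 8.0 FPKM in mutant columns 0, 1 and 2. The groups did not overlap, and the highest mutant value was over 2 times the lowest. The means were 1.79 ± 0.678 and 6.02 ± 2.04 FPKM (SD, n = 3), and the difference of 1.32 in log2(FPKM + 1) had a 95% confidence interval of 0.64 to 1.99 and did not pass the limma test (adjusted p = 0.052). Perp passed under 7 of 17 alternative settings. It passed without mutant column 0, the mutant library with the lowest value (difference 1.55, adjusted p = 0.040). In a fit with a Y-linked covariate its difference was 0.29 (adjusted p = 0.82), with a standard error of 0.583 against 0.274 without it. Epithelial markers were low in all libraries, with 6 markers summing to 1.03 to 1.88 FPKM in wild-type and 2.24 to 3.64 FPKM in mutant libraries, Krt5 at 0 in all wild-type and at most 0.080 FPKM in mutant libraries, and Epcam at 0.809 ± 0.187 and 1.83 ± 0.699 FPKM. Of these 6 markers, 4 were higher in every mutant than in every wild-type library. Endothelial markers summed to 1.46 FPKM in mutant column 0 and to 10.5 and 11.5 FPKM in mutant columns 1 and 2, against 2.58 to 5.10 FPKM in wild-type libraries. Their part in the Perp values was not tested.

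Pidd1 encodes the scaffold of the PIDDosome, the complex that activates caspase-2 (chromosome 7, 141438113 to 141444025, mm10). It measured 1.38, 1.56 and 1.45 FPKM in wild-type columns 0, 1 and 2 and 2.53, 1.89 and 2.57 FPKM in mutant columns 0, 1 and 2. Each mutant library lay above each wild-type library, column 1 by the smallest margin. The difference of 0.43 in log2(FPKM + 1) had a 95% confidence interval of 0.10 to 0.76 and did not pass in limma (adjusted p = 0.125), nor did it pass under any of 17 alternative settings. The pseudocount of 1 FPKM compresses differences at such levels, and with a pseudocount of 0.1 FPKM the difference was 0.62 (adjusted p = 0.11). The Y-linked covariate gave 0.68 (adjusted p = 0.32).

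The initiator caspases did not rise. Casp8, which encodes the caspase activated at death receptors (chromosome 1, 58795374 to 58847503, mm10), measured 11.4, 9.23 and 10.7 FPKM in wild-type columns 0, 1 and 2 and 8.02, 10.5 and 9.55 FPKM in mutant columns 0, 1 and 2. It was the only one of the 9 genes whose groups overlapped. The difference was -0.15 with a 95% confidence interval of -0.44 to 0.15 (limma adjusted p = 0.505), so that a rise of more than 0.15 in log2(FPKM + 1) lies outside the interval. With the Y-linked covariate the Casp8 difference was -0.63 (adjusted p = 0.23). Casp9, which encodes the caspase activated on the apoptosome (chromosome 4, 141793612 to 141815976, mm10), measured 3.70, 4.12 and 3.43 FPKM in wild-type columns 0, 1 and 2 and 1.81, 2.47 and 2.72 FPKM in mutant columns 0, 1 and 2. It was the only one of the 9 that was lower in every mutant library than in every wild-type library. The means were 3.75 ± 0.348 and 2.33 ± 0.473 FPKM (SD, n = 3), and the difference of -0.52 (95% confidence interval -0.86 to -0.18) did not pass in limma (adjusted p = 0.090). It passed under 1 of 17 alternative settings, the test of protein-coding genes only (adjusted p = 0.046). With the Y-linked covariate the Casp9 difference was -1.04 (adjusted p = 0.145). The gene models of Cela2a and Ctrc overlap Casp9 on the opposite strand. The libraries were stranded, but whether the strand was used in counting is not given in the sources used here.

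**Figure D2:**
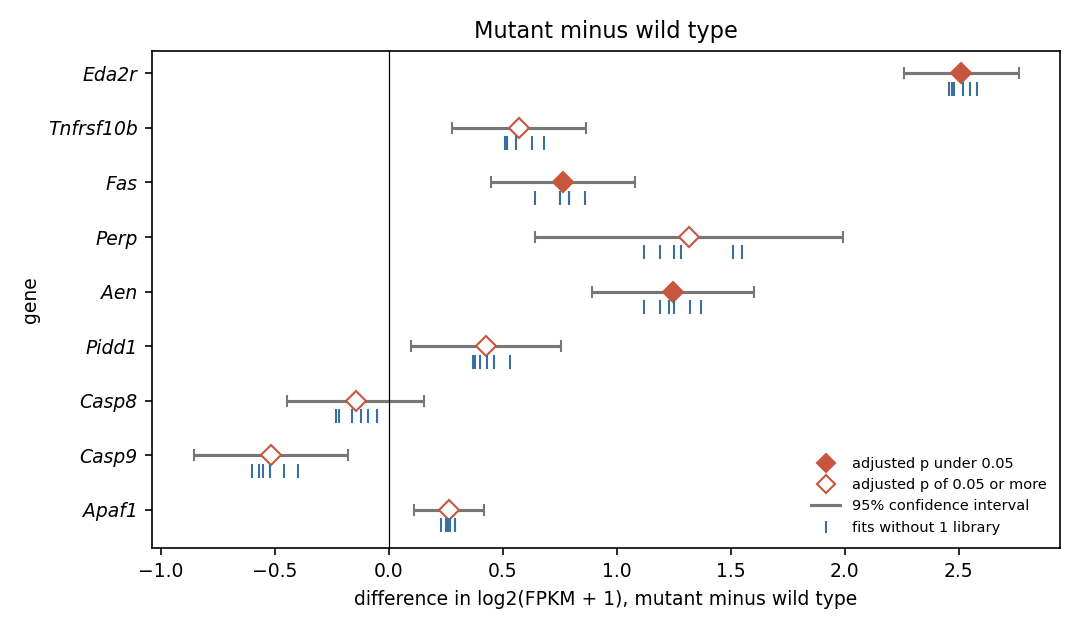
Difference in log2(FPKM + 1), mutant minus wild type, for each of the 9 genes, with diamonds for the fit of all 6 libraries (filled where the adjusted p was under 0.05), bars for 95% confidence intervals and blue ticks for the 6 fits that each left out 1 library. Eda2r (2.51), Aen (1.25) and Fas (0.76) are filled, Casp9 (-0.52) and Casp8 (-0.15) lie below 0, and no tick crosses 0.

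Apaf1, the platform on which caspase-9 is activated (chromosome 10, 90989311 to 91082770, mm10), was the most abundant of the 9 genes in wild-type libraries. It measured 12.6, 12.2 and 11.9 FPKM in wild-type columns 0, 1 and 2 and 15.6, 14.8 and 14.3 FPKM in mutant columns 0, 1 and 2. The groups were tight and did not overlap, with means of 12.2 ± 0.370 and 14.9 ± 0.681 FPKM (SD, n = 3). The difference was small, 0.26 in log2(FPKM + 1) (95% confidence interval 0.11 to 0.42), and did not pass in limma (adjusted p = 0.069), passing under 1 of 18 alternative settings, the one with library weights (adjusted p = 0.038). The Y-linked covariate gave a difference of 0.41 (adjusted p = 0.22). The partners of the apoptosome thus lay on opposite sides of 0. The level of Casp9 as a ratio to that of Apaf1 was 0.292, 0.339 and 0.288 in wild-type columns 0, 1 and 2 and 0.116, 0.166 and 0.191 in mutant columns 0, 1 and 2, with no overlap. Casp9 was lower and Apaf1 higher in every mutant than in every wild-type library, so this ratio could not overlap and adds no support. It was not tested.

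The order of the 9 genes by level changed between groups. In wild-type libraries the means ran from Apaf1 (12.2 FPKM) through Casp8, Aen, Tnfrsf10b, Fas, Casp9, Perp and Pidd1 to Eda2r (0.718 FPKM). Of the neighbours in that order, the ranges overlapped for Casp8 and Aen, for Tnfrsf10b and Fas, for Fas and Casp9 and for Perp and Pidd1. In mutant libraries Aen (22.1 FPKM) came first and Apaf1 (14.9 FPKM) second, each apart from the next. Casp8, Eda2r, Fas, Tnfrsf10b and Perp followed at 9.36 to 6.02 FPKM, with each overlapping the next, and Casp9 and Pidd1 shared the lowest place at 2.33 FPKM each. Eda2r thus moved from the lowest level among the 9 to one that overlapped that of Casp8.

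**Figure D3:**
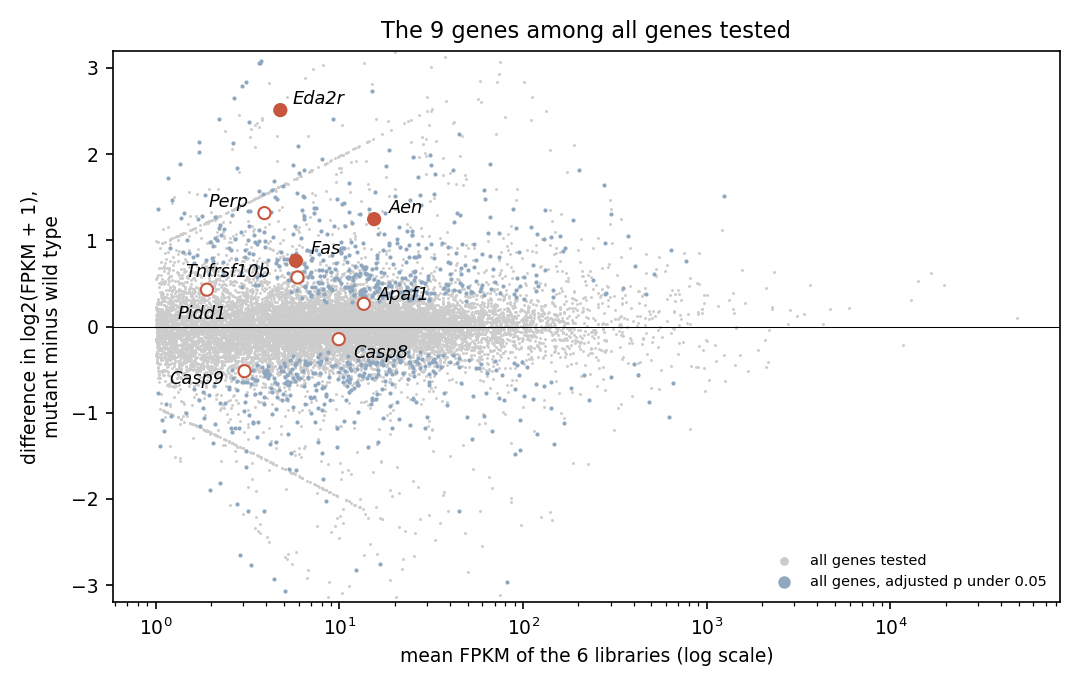
Difference in log2(FPKM + 1), mutant minus wild type, against mean FPKM (log axis) for all 14012 genes tested in grey, genes with an adjusted p under 0.05 in blue and the 9 genes as ringed points, filled red where they passed (79 genes lie beyond the vertical range of 3.2). Eda2r stands near the upper edge of genes at its level, while Casp8 and Apaf1 lie within the band around 0.

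Other genes followed the profiles of the 3 genes that rose. Likeness was the root mean square difference, over the 6 libraries, of log2(FPKM + 1) minus the wild-type mean, given as a description. For Fas the nearest were Tmem100 (0.031), Lrrc28 (0.042) and Wdr35 (0.043). Tmem100, a membrane protein of BMP signalling in vessels, measured 3.57, 3.66 and 3.32 FPKM in wild-type columns and 5.88, 6.53 and 8.09 FPKM in mutant columns 0, 1 and 2. For Aen the nearest were Tnfrsf12a (0.059), Zfp365 (0.125) and Fam102b (0.126). Tnfrsf12a, the receptor of the cytokine TWEAK and itself of the tumor necrosis factor receptor family, measured 23.0, 29.8 and 24.8 FPKM in wild-type columns and 66.1, 58.5 and 69.3 FPKM in mutant columns 0, 1 and 2. The nearest to Eda2r were farther off, namely Ikzf5 (0.193), Chst15 (0.200) and Ephx1 (0.208). Ikzf5 and Chst15 were listed at 0 in all wild-type libraries, which can be a failed estimate. Ephx1, microsomal epoxide hydrolase, measured 2.73, 4.11 and 2.72 FPKM in wild-type columns and 25.7, 24.7 and 29.7 FPKM in mutant columns 0, 1 and 2.

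On the list of other death receptors, decoys and ligands, 1 of 7 tested genes rose and none fell. Among the 7, Unc5b encodes a netrin receptor outside the TNF family. At an unadjusted limma p under 0.05, 4 were higher and 0 lower. Tnfrsf1a, the main receptor of tumor necrosis factor, rose from 24.1 ± 2.62 to 36.6 ± 3.34 FPKM (SD, n = 3, limma adjusted p = 0.040). It was not called in any of the 6 fits without 1 library (adjusted p = 0.051 to 0.13). Ltbr, the lymphotoxin beta receptor, measured 27.1 ± 1.77 and 33.3 ± 2.75 FPKM (adjusted p = 0.12). The ligands were near the floor: Fasl was at most 0.066 FPKM in any library, Tnfsf10, which encodes TRAIL, at most 0.221 FPKM and Tnf at most 0.443 FPKM. Eda, which encodes ectodysplasin including the form bound by Eda2r, measured 0.737 ± 0.0900 FPKM in wild-type and 0.656 ± 0.0679 FPKM in mutant libraries and was not tested.

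Signalling genes below the receptors did not rise with them. Of 9 tested adaptors and brakes none passed in limma. Unadjusted, 0 were higher and 5 lower at p under 0.05, and the list median was -0.25. Fadd, the adaptor between Fas and caspase-8, measured 1.57 ± 0.212 FPKM in wild-type and 1.06 ± 0.167 FPKM in mutant libraries (adjusted p = 0.24). Ripk1, a kinase that directs the receptor complex to survival or death, measured 12.0 ± 0.812 and 12.9 ± 0.416 FPKM (adjusted p = 0.42), and Dedd, which carries a death effector domain, 11.8 ± 2.76 and 11.9 ± 1.23 FPKM (adjusted p = 0.92). Of 5 other tested caspases none passed in limma. Unadjusted, 1 was higher and 0 lower at p under 0.05. Casp2, the partner of Pidd1, measured 9.91 ± 0.163 FPKM in wild-type and 9.21 ± 0.762 FPKM in mutant libraries (adjusted p = 0.47).

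Of 10 tested partners of the apoptosome and inhibitors of apoptosis none passed in limma, and 1 was higher and 2 were lower before adjustment (p under 0.05). The higher one was Htra2, a mitochondrial protease, at 24.1 ± 0.260 FPKM in wild-type libraries and 44.0, 30.2 and 32.7 FPKM in mutant columns 0, 1 and 2 (adjusted p = 0.093). Birc6, a giant inhibitor of caspases, measured 45.4 ± 5.18 and 38.8 ± 4.58 FPKM (adjusted p = 0.32), and Diablo, which relieves that inhibition, 33.9 ± 1.83 and 30.4 ± 0.505 FPKM (adjusted p = 0.21). Of 9 tested caspase substrates and execution genes none passed in limma, and before adjustment 1 was higher and 0 were lower (p under 0.05). Parp1, a DNA repair enzyme that caspases cleave, measured 32.9 ± 1.32 and 32.4 ± 0.615 FPKM (adjusted p = 0.88), and Acin1, a caspase substrate of chromatin, 23.0 ± 3.28 and 26.0 ± 3.95 FPKM (adjusted p = 0.52). Of 3 tested genes of necroptosis and pyroptosis none passed in limma and 0 had an unadjusted p under 0.05. Ripk3, the necroptosis kinase, measured 6.75 ± 0.379 and 7.88 ± 2.59 FPKM (adjusted p = 0.73), and Cyld, a deubiquitinase of that route, 9.63 ± 0.304 and 9.93 ± 0.720 FPKM (adjusted p = 0.79).

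**Figure D4:**
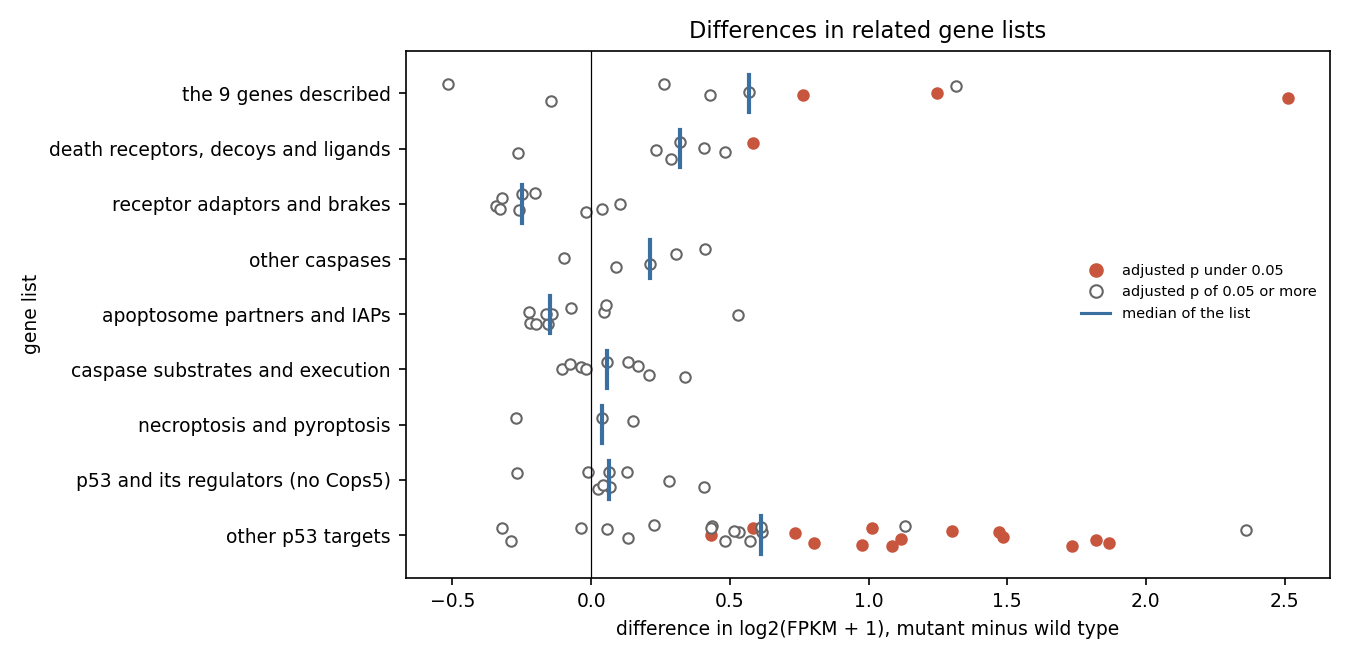
Difference in log2(FPKM + 1), mutant minus wild type, of the tested genes of each list, 1 point a gene, red where the adjusted p was under 0.05, with a blue bar at the list median. Red points appear in the 9 genes described (3), the receptors and ligands (1) and other p53 targets (14), and the adaptors have their median at -0.25.

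Of 30 tested p53 targets outside the 9 genes, 14 rose and none fell in limma, against 3.48% and 2.59% of all genes tested. This list was chosen with earlier results of these data known, so its counts give no independent support. Before adjustment 22 were higher and 0 lower (p under 0.05), and the list median was 0.61. The largest of these 14 differences were those of Trp53inp1, which promotes autophagy and cell death (1.87), Cdkn1a, the cell cycle inhibitor p21 (1.82), and Phlda3, an inhibitor of Akt (1.73). Gtse1 (1.49), Dcxr (1.47), Plk2 (1.30), Zfp365 (1.12), Bax (1.08), Ccng1 (1.01), Steap3 (0.98), Ei24 (0.80), Mdm2 (0.73), Polk (0.58) and Ercc5 (0.43) also rose. Rps27l, abundant at 140 ± 15.5 FPKM in wild-type and 204 ± 31.8 FPKM in mutant libraries, did not pass (adjusted p = 0.099). Leaving out wild-type column 0 or 2 left 4 of these targets that rose. The number was 5 without wild-type column 1, 6 without mutant column 2. It was 2 in the fit with the Y-linked covariate. The transcript of p53 itself, Trp53, measured 15.2 ± 5.25 FPKM in wild-type and 18.3 ± 4.96 FPKM in mutant libraries (adjusted p = 0.59). Of the 9 tested genes of the list of p53 and its regulators, Trp53 included and Cops5 left out, none passed in limma, and 1 was higher and 1 lower before adjustment (p under 0.05). Usp7, which deubiquitinates Mdm2 and p53, measured 33.1 ± 1.83 FPKM in controls and 34.1 ± 2.53 FPKM in mutants (adjusted p = 0.78).

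**Figure D5:**
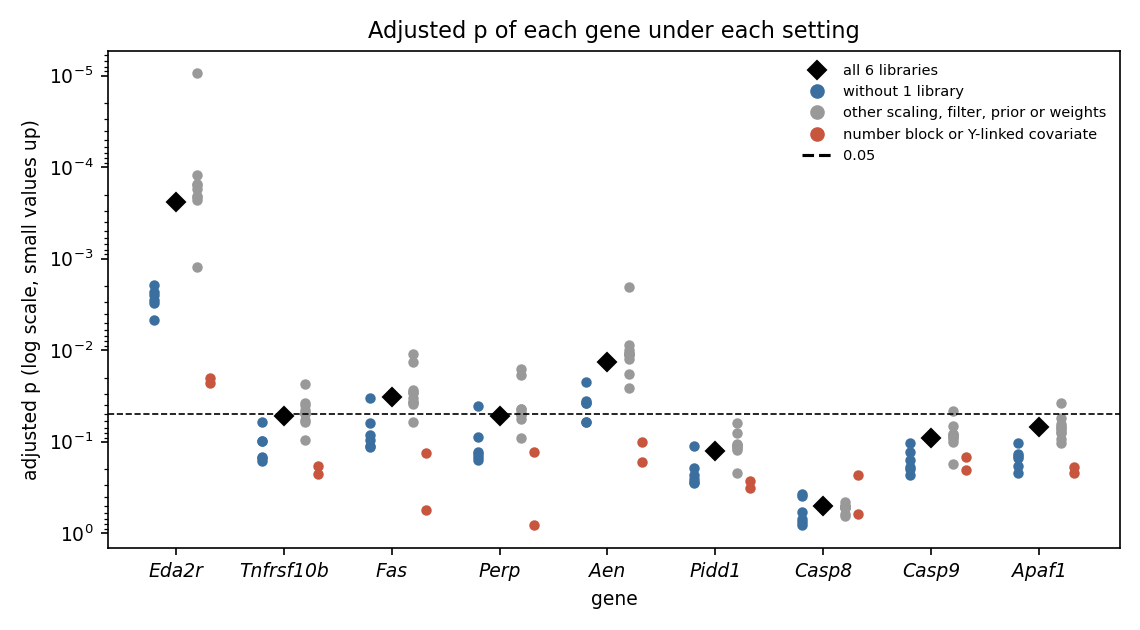
Adjusted p (log axis, small values at the top) of each of the 9 genes with all 6 libraries (black diamonds), without 1 library (blue), under other scalings, filters, priors or weights (grey) and with the number block or the Y-linked covariate (red), with a dashed line at 0.05. All points of Eda2r lie above the line, the points of Tnfrsf10b, Fas, Perp and Aen lie on both sides, and Casp9 and Apaf1 each have 1 point above it, and all of Pidd1 and Casp8 lie below it.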

How the data were processed

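Values were FPKM as the authors deposited them, 1 column per library. Alignment and quantification tools listed in the submitters' processing notes are Cufflinks, Cuffdiff and STAR, and the build mm10, and the labels' protocols name CLC Genomics Workbench. Versions, settings and any scaling between libraries are not given in the sources used here. Columns were mapped by group and number per the file headers. No description carries number 2, so both columns numbered 2 were matched to their group only. Coordinates came from GENCODE release M21 of the same build, matched by gene ID (99.4% of genes), and promoters from RefSeq.

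limma 3.58.1 in R 4.3.3 was fitted to log2(FPKM + 1) with 1 genotype coefficient (eBayes, trend=TRUE, two-sided) over the 14012 genes averaging 1 FPKM or more, with Benjamini-Hochberg adjustment. The script was tested on simulated data. The 18 alternative settings changed the pseudocount, filter, scaling, variance prior, weights, genes tested, block or covariate, or left out 1 library.

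The members and gene lists were chosen with earlier results of these data known. Named from each list were genes with an adjusted p under 0.05 and the 2 with the highest mean. Other list genes were named after their values were seen. Some genes that the rule would name are not reported here. FPKM carry no read counts. Low values of short RNA genes fell on common steps, whose ratios put wild-type columns 1 and 2 at 1.159 and 1.193 times, and mutant columns 0, 1 and 2 at 0.987, 1.44 and 1.136 times, the depth of wild-type column 0 if a step is 1 read. No counting intervals are given.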

Additional observations from a re-analysis of the deposited data

How the results depend on the processing

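Of the 9 genes, 3 rose with all 6 libraries. The number was 5 with a pseudocount of 0.1 or 0.5 FPKM, quantile normalization, a robust variance prior or protein-coding genes only, 6 with library weights, and 1 with the replicate block or the Y-linked level as a covariate. It ranged from 1 to 4 without 1 library, the lowest number coming from the fits that lacked column 2 of one group. None fell except Casp9 with protein-coding genes only, which gave 1. Eda2r was called under each of its 17 alternatives, and no alternative turned the direction of any of the 9. Over all genes, 487 rose and 363 fell. Rises and falls numbered 295 and 166 without the filter, 816 and 672 with library weights, 741 and 632 over protein-coding genes, 44 and 16 with the replicate block, 189 and 47 with the Y-linked covariate, and 99 to 377 and 66 to 289 without 1 library. Of the 82 tested genes of the related lists 15 rose, and 0 did so with the replicate block, 3 with the Y-linked covariate and 4 to 13 without 1 library, while 1 fell without the filter. The cause of these changes was not tested. Fits without 1 library and with a block or covariate had fewer residual degrees of freedom. Y-linked levels also did not overlap between the groups, so fits with that covariate could not fully separate them from genotype.

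Among named genes that did not pass, the sign turned for Dedd with library weights and on leaving out column 0 of either group (-0.06, -0.14 and -0.04, and -0.14 to 0.18 without 1 library), for Parp1 with library weights and without wild-type column 0 (0 and 0.01), without 1 library for Cyld (-0.01 to 0.09), Usp7 (-0.02 to 0.08) and Ripk3 (-0.01 to 0.42), and with the Y-linked covariate for Birc6 (0.17), Ripk3 (-1.09), Rps27l (-0.12) and Usp7 (-0.09).

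Nothing in the labels says that a shared number marks a shared litter or day. The deviations of same-numbered columns from their group means correlated at -0.033, -0.042 and -0.023 across genes. No pairing by number thus showed over all genes, but a link that touches few genes would not show in these values. In the fit with the replicate block on the header numbers, Eda2r was called (adjusted p = 0.023) and Fas and Aen were not (adjusted p = 0.13 and 0.10). The files hold no read counts, so the counting error behind low values such as those of Pidd1 is unknown.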
